A study of Mus musculus with 36 samples.

Results

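Csmd1, Csmd2 and Csmd3 encode the CUB and sushi multiple domains family, and they were selected by gene symbol as 3 of the 49943 genes annotated on chromosomes 1 to 19, X and Y. Their DNA lesions were counted in tissues of 2 male C57BL/6J mice aged 24 months, untreated as far as the labels state. Bone marrow cleared of red cells, brain, heart, liver, peripheral blood mononuclear cells (PBMC) isolated on Ficoll, and motile sperm from the epididymal tail each gave 2 DNA samples. Every DNA sample was profiled for single-strand breaks (SSB) by SSiNGLe and for abasic sites (AP sites, positions that have lost their base) by SSiNGLe-AP, which gave 12 SSB and 12 AP libraries, 2 of each kind per tissue. Sperm DNA was purified with a different kit from the other tissues, so the kit and the tissue cannot be told apart there. All animals were of a single age and sex, so neither age nor sex was compared.

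The CSMD proteins are very large, single-pass membrane proteins whose extracellular part is built almost entirely from CUB domains and sushi domains, the latter also called complement control repeats. They are expressed mainly in the nervous system, where CSMD1 is known as an inhibitor of complement, the cascade that tags targets, synapses included, for removal by phagocytes, and where CSMD2 and CSMD3 have been tied to dendrite and synapse development. The genes are among the longest in the genome, and nearly all of their length is intron.

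In GRCm38 coordinates, Csmd1 (gene ID 94109) spans positions 15892538 to 17535385 of chromosome 8, or 1642848 bp. Csmd3 (gene ID 239420) spans 47580638 to 48792558 of chromosome 15, or 1211921 bp, and Csmd2 (gene ID 329942) spans 127986505 to 128567660 of chromosome 4, or 581156 bp. All 3 are protein-coding, and 224 other protein-coding genes are longer than 500 kb. Density was expressed as LPKM, the study's measure in its whole-gene form: the number of distinct lesion nucleotides on either strand between the ends of a gene, per kb of the gene and per 1e+06 positions of the library. The study's main analysis counted only lesions in exons, over exon length, and was repeated there on whole genes. The SSB libraries held 225011 to 1041983 positions and the AP libraries 460719 to 963258. The members therefore held from 43 positions (Csmd3, SSB, PBMC replicate 1) to 775 positions (Csmd1, AP, sperm replicate 1) in a library. The counting error alone was 15.2% and 3.59% of the value in these extreme cases.

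Each lesion is a single nucleotide, which can be shown on an annotated promoter window that holds lesions within a member. It is that of Hmgb4os, a non-coding RNA gene inside Csmd2. The window also covers the higher-coordinate end of Hmgb4, a neighbouring gene for a high-mobility-group protein. The window lies at chr4:128260794-128261093 of GRCm38.p6, plus strand, and is given 5′ to 3′ from RefSeq, with the 6 nucleotides that carried a lesion in any of the 24 libraries in capitals.
Hmgb4os window: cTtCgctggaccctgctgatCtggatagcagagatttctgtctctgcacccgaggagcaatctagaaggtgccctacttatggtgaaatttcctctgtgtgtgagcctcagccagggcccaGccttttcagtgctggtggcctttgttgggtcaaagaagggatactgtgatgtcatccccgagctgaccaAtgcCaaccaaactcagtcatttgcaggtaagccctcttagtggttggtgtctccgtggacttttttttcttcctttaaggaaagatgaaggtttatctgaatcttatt
The last capital, at nucleotide 196 of the window, carried an SSB on the plus strand in both liver libraries. The other 5 capitals each carried an AP site in a single library, and the first 3 of these were on the minus strand, opposite the base printed. The window of Gm33656, another non-coding RNA gene within Csmd2, carried no lesion in any library. Promoter windows of the other genes inside the members were not examined.

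The 3 genes differed widely in lesion density, and their order was the same in every library. Csmd2 was the densest, Csmd1 was intermediate and Csmd3 carried few lesions for its length. In the SSB libraries, Csmd2 had 0.669 ± 0.0610 LPKM (mean ± SD, n = 12), Csmd1 0.430 ± 0.0416 and Csmd3 0.173 ± 0.0274. In the AP libraries, the values were 0.695 ± 0.0459 for Csmd2, 0.485 ± 0.0284 for Csmd1 and 0.155 ± 0.0167 for Csmd3. The ranges of the 3 genes did not overlap in either assay. The lowest Csmd2 value (0.566 LPKM, SSB, PBMC replicate 1) exceeded the highest Csmd1 value (0.544, AP, liver replicate 1), and the lowest Csmd1 value (0.364, SSB, bone marrow replicate 2) exceeded the highest Csmd3 value (0.224, SSB, sperm replicate 1).

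The density of Csmd2 was 3.90 times that of Csmd3 in SSB libraries and 4.48 times in AP libraries, and was higher in 12 of 12 libraries of each assay. Csmd1 was 2.50 and 3.13 times as dense as Csmd3, and 0.643 and 0.699 times as dense as Csmd2. For each of the 6 comparisons the exact two-sided sign-flip permutation test over 12 libraries gave p = 0.000488 (adjusted over the 6, 0.000488), the smallest value that 12 libraries allow. All 12 libraries of an assay came from 2 mice, so these p-values describe the spread between libraries and not between animals. Neither base composition nor the share of each gene to which reads can be assigned was available, and their part in the order of the 3 genes was not tested.

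Against other long genes, the members spanned nearly the whole range. Ranked from the highest mean density among the 227 protein-coding genes over 500 kb, Csmd2 stood at place 11 in SSB and 14 in AP libraries. Csmd1 stood at places 93 and 80, and Csmd3 at places 213 and 214. The other 224 long genes had a median of 0.384 LPKM for SSB and 0.404 for AP sites, below the medians of all genes (0.552 and 0.583). Relative to the pooled rate of the long genes in the same library, Csmd2 carried 178% of the SSB rate and 176% of the AP rate, Csmd1 114% and 122%, and Csmd3 45.6% and 39.2%.

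**Figure D1:**
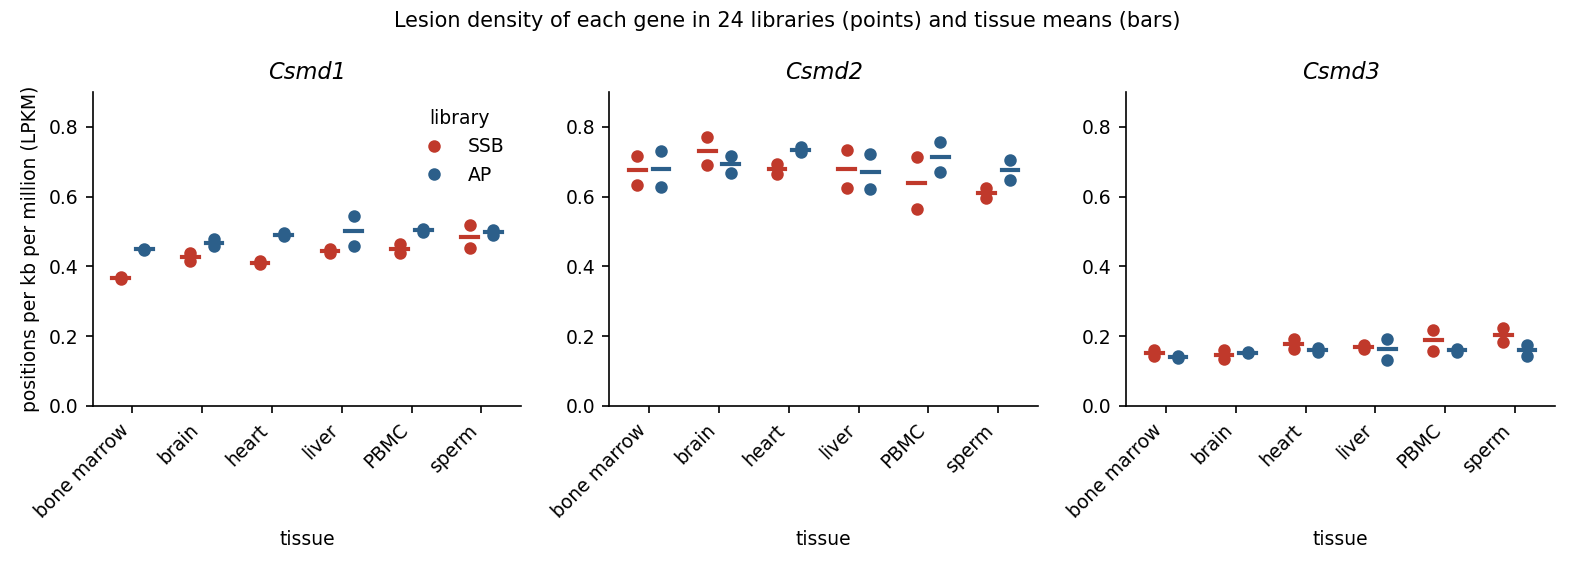
Lesion density (LPKM, vertical axis from 0) of Csmd1, Csmd2 and Csmd3 by tissue, with a point per library (SSB red, AP blue, 2 per tissue) and a bar for the mean of each pair. Csmd2 lies between 0.566 and 0.771, Csmd1 between 0.364 and 0.544 and Csmd3 between 0.133 and 0.224, and the 2 SSB points of Csmd1 in bone marrow are the lowest of that gene.

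For SSB, Csmd1 was sparsest in bone marrow and densest in sperm. The 2 bone marrow libraries had 0.369 and 0.364 LPKM, the heart libraries 0.406 and 0.414, and the brain libraries 0.414 and 0.438. The liver libraries had 0.449 and 0.437, the PBMC libraries 0.438 and 0.464, and the sperm libraries 0.518 and 0.452. Both bone marrow values lay below all other 10 SSB values. The bone marrow values also did not overlap those of heart, the next tissue in the order, and heart did not overlap brain although their means differed by less than the larger SD, whereas each of the neighbours from brain up to sperm overlapped. The tissue means differed by 1.32-fold from bone marrow to sperm.

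In the quasi-likelihood F test of edgeR across the 6 tissues, Csmd1 had the lowest p of the members for SSB but did not pass after adjustment over all genes (adjusted p = 0.0758). In this test 48 of the 38486 genes passed an adjusted p of 0.05 (0.125%), and Csmd2 (adjusted p = 0.992) and Csmd3 (adjusted p = 0.745) did not. The adjusted p of Csmd1 fell to 0.0291 with DESeq2 size factors, 0.0263 among genes with a position in at least 80% of libraries, 0.0329 with the replicate number as a block, and 0.0306 among genes with a mean of at least 20 positions. It rose to 0.544 with library size alone, 0.983 with long genes, 0.696 with summed counts, 0.722 at equal depth, 1 in the likelihood ratio test of DESeq2, and 0.985 and 0.995 in limma with pseudocounts of 0.01 and 1. Leaving out PBMC replicate 1 or 2 also brought it below the threshold (0.0394 and 0.0349), and leaving out sperm replicate 1 raised it to 0.996.

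Comparison of bone marrow with the other 5 tissues placed Csmd1 lower for SSB by 0.40 on the log2 scale (SE 0.0894, 95% interval −0.58 to −0.23, edgeR adjusted p = 0.0113). Among all genes, 73 of 38486 (0.19%) passed this test, 9 of them higher and 64 lower in bone marrow. This balance turned with the scaling, since 319 of 322 calls were higher with long genes and 21 of 29 with library size alone. With DESeq2 size factors, 17 of 62 were higher. Csmd3 was at −0.37 (95% interval −0.65 to −0.09, adjusted p = 0.473) and Csmd2 at −0.08 (95% interval −0.29 to 0.13, adjusted p = 0.954), and neither passed. This contrast and that of sperm were chosen because earlier results of these data put long genes at opposite ends there. They are therefore no independent test of long genes, the members included. The other long genes had the same sign at their median. Of these 224, 46 (20.5%) were called, all 46 lower, with a median log2 difference of −0.35 against 0.04 over all genes tested, and Csmd1 ranked only 86 of the 227 from the lowest.

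The Csmd1 call in bone marrow depended on the scaling and on single libraries. The main TMM scaling moved this contrast by −0.13 on the log2 scale relative to library size alone, and by −0.33 on average over the members relative to scaling on long genes. With library size alone, Csmd1 was at −0.28 (adjusted p = 0.221), and with libraries scaled to their positions in the other long genes it was at −0.07 (adjusted p = 0.806). The call was also lost without bone marrow replicate 1 (adjusted p = 0.956) or 2 (0.178), brain replicate 2 (0.211), heart replicate 1 (0.113), liver replicate 1 (0.220) or sperm replicate 1 (0.235). The direction of Csmd2 turned under these scalings, to 0.05 with library size alone and 0.25 with long genes, neither of which passed (adjusted p = 0.9998 and 0.258).

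**Figure D2:**
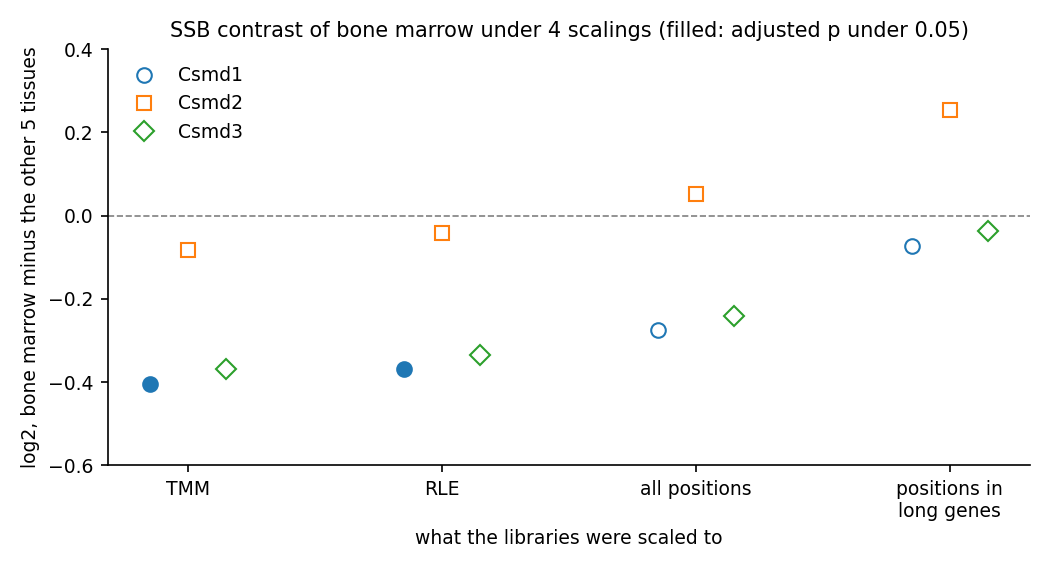
Log2 difference in SSB density between bone marrow and the mean of the other 5 tissues (vertical axis) for the 3 members, under TMM, RLE (DESeq2 size factors), all positions of the library and positions in other long genes (horizontal axis), with filled symbols where the adjusted p was under 0.05. Csmd1 is filled only under TMM (−0.40) and RLE, and rises to −0.07 when libraries are scaled to long genes, where Csmd2 lies above 0.

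In sperm, 8 of 38486 genes (0.0208%) passed for SSB, all 8 of them higher and all 8 among the other long genes. All calls were also higher with library size alone (6) and with DESeq2 size factors (27). With libraries scaled to long genes, only 1 of 17 calls was higher. No member passed in the main fit. Csmd1 was at 0.25 (95% interval 0.09 to 0.42, adjusted p = 0.575), Csmd3 at 0.35 (95% interval 0.09 to 0.61, adjusted p = 0.777) and Csmd2 at −0.13 (95% interval −0.35 to 0.09, adjusted p = 0.960). Among genes with a mean of at least 20 positions, which leaves 3230 tests, the same 0.25 of Csmd1 passed (adjusted p = 0.0360). With libraries scaled to their positions in the other long genes, it was at 0.045 (adjusted p = 0.9998), Csmd3 at 0.14 and Csmd2 at −0.34, and without sperm replicate 1 Csmd1 was at 0.15 (adjusted p = 0.9999). The other 224 long genes had a median of 0.22 in this contrast, against −0.02 over all genes tested, and Csmd1 ranked 135 of the 227 from the lowest.

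In brain, the tissue in which these genes are best known to be expressed, no gene passed the SSB test (0 of 38486, 0%, with 1885 genes at an unadjusted p under 0.05 and 0 called by DESeq2). Csmd2 was at 0.18 (95% interval −0.00 to 0.36), Csmd1 at 0.04 (95% interval −0.11 to 0.19) and Csmd3 at −0.18 (95% interval −0.42 to 0.06). The sign of Csmd1 turned under 7 of the settings, library size alone (−0.00) and long genes (−0.01) among them.

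Csmd2 varied little between tissues relative to the spread within pairs. Its SSB values were 0.771 and 0.691 LPKM in brain, 0.694 and 0.666 in heart, and 0.733 and 0.626 in liver. They were 0.717 and 0.634 in bone marrow, 0.566 and 0.715 in PBMC, and 0.597 and 0.624 in sperm. Every neighbour in this order overlapped, although both sperm values lay below both brain and both heart values. The tissue means differed by 1.20-fold at most.

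Csmd3 carried its highest mean SSB density in sperm and its lowest in brain, with few positions behind each value. It had 0.224 and 0.184 LPKM in sperm, 0.158 and 0.219 in PBMC, and 0.192 and 0.164 in heart. It had 0.174 and 0.162 in liver, 0.144 and 0.161 in bone marrow, and 0.135 and 0.160 in brain. The liver and bone marrow pairs were the only neighbours without overlap, at 0.162 against 0.161. Its sperm mean was 1.39 times its brain mean.

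The tissue means of AP site density differed by at most 1.12-fold for Csmd1, 1.09-fold for Csmd2 and 1.16-fold for Csmd3, in libraries that were mostly deeper than those of SSB. For Csmd1 they were 0.451 and 0.447 LPKM in bone marrow, 0.478 and 0.458 in brain, 0.495 and 0.487 in heart, 0.490 and 0.505 in sperm, 0.544 and 0.458 in liver and 0.499 and 0.508 in PBMC. Bone marrow was again the lowest, both values lying below the other 10. Csmd3 was also lowest in bone marrow, at 0.143 and 0.136 LPKM, against 0.151 and 0.155 in brain, 0.163 and 0.155 in PBMC, 0.144 and 0.175 in sperm, 0.154 and 0.165 in heart, and 0.192 and 0.133 in liver. The liver pair of Csmd3 spanned the whole range of that gene. Csmd2 ranged from 0.622 (liver replicate 1) to 0.756 (PBMC replicate 1), and all its neighbouring tissues overlapped.

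No gene passed the F test across tissues for AP sites (0 of 41374, 0%, with 1219 at an unadjusted p under 0.05, 0 called by DESeq2, and 383 and 53 by limma with pseudocounts of 0.01 and 1). None passed for brain, sperm or bone marrow in edgeR either (0% each), where 1782, 1555 and 1819 genes had an unadjusted p under 0.05 and DESeq2 called 0, 0 and 1. The bone marrow differences were −0.20 for Csmd1 (SE 0.0833), −0.25 for Csmd3 (SE 0.118) and −0.12 for Csmd2 (SE 0.0938), all with adjusted p = 0.9999 in edgeR. The other 224 long genes had a median of −0.15 in this contrast, against 0.04 over all genes tested.

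The SSB and AP densities of the same DNA sample could be compared directly, because both assays used the same DNA. Csmd1 was less dense in the SSB library than in the AP library in 11 of 12 DNA samples, sperm replicate 1 being the exception. Its ratio of SSB to AP density was 0.818 and 0.814 in bone marrow, 0.867 and 0.956 in brain, 0.821 and 0.850 in heart, 0.825 and 0.954 in liver, 0.879 and 0.912 in PBMC, and 1.06 and 0.895 in sperm. The mean ratio was 0.887 ± 0.0732 (SD, n = 12). Csmd2 had a mean ratio of 0.968 ± 0.117, below 1 in 7 of 12 samples, and Csmd3 had 1.12 ± 0.207, above 1 in 8 of 12.

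In the edgeR test paired by DNA sample, Csmd1 was lower in SSB than in AP libraries by 0.27 on the log2 scale (SE 0.0552, 95% interval −0.38 to −0.16, adjusted p = 0.00132). The 12 DNA samples came from 2 mice, so the errors, intervals and p-values of this test describe the spread between samples and not between animals. Of all 41210 genes tested, 307 (0.745%) passed, 64 higher and 243 lower in SSB libraries. This balance turned with the scaling, since 196 of 213 calls were higher with long genes, 108 of 173 with library size alone and 104 of 179 with DESeq2 size factors. Csmd2 was at −0.15 (95% interval −0.27 to −0.03, adjusted p = 0.342) and Csmd3 at 0.06 (95% interval −0.08 to 0.20, adjusted p = 0.874), and neither passed. Csmd1 lay at place 30 from the lowest among the 227 long genes, and of the other 224, 54 (24.1%) passed, all 54 lower. A difference in the chemistry of the assays and a difference in the lesions themselves cannot be told apart here.

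The Csmd1 difference held when each DNA sample was left out in turn (adjusted p from 6.78e-05 to 0.00629). It was smaller and nearer the threshold with library size alone (−0.17, edgeR adjusted p = 0.0392) and with DESeq2 size factors (−0.18, edgeR adjusted p = 0.0415). The same held in the Wald test of DESeq2 (−0.19, adjusted p = 0.0473) and among genes with a mean of at least 20 positions (−0.15, edgeR adjusted p = 0.0318). The Csmd1 call was lost when libraries were scaled to their positions in the other long genes (log2 difference −0.11, adjusted p = 0.379), and under this scaling the sign of Csmd2 turned to 0.01. TMM moved this contrast by −0.09 relative to library size alone and by −0.16 relative to long genes.

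**Figure D3:**
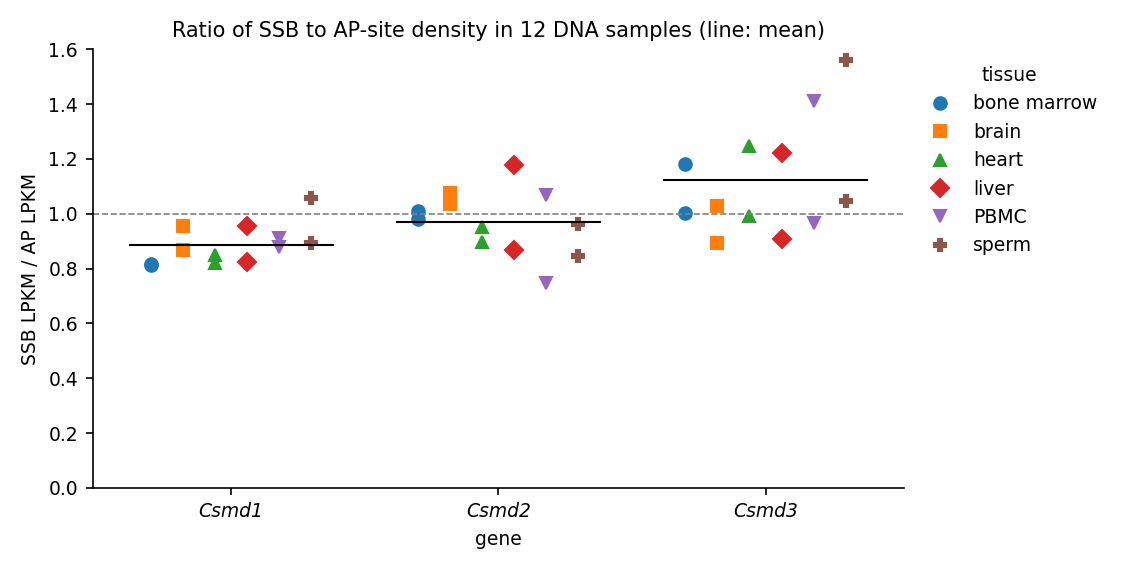
Ratio of SSB to AP LPKM (vertical axis from 0) in each of the 12 DNA samples for the 3 members, coloured by tissue, with a line at the mean of each gene and a dashed line at 1. Csmd1 lies below 1 in 11 of 12 samples (mean 0.887), whereas Csmd2 (0.968) and Csmd3 (1.12) lie on both sides, and Csmd3 spans 0.894 to 1.56.

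Whether the SSB to AP difference itself differed between tissues was tested with an assay by tissue term, chosen after the data had been seen. For Csmd1 the difference was lower in bone marrow than in the other 5 tissues by 0.26 (unadjusted p = 0.0351, edgeR adjusted p = 1), and higher in sperm by 0.22 (unadjusted p = 0.0640, edgeR adjusted p = 1). In bone marrow, 1 of 41210 genes passed this test (0.00243%). None passed for brain or sperm (0% each, with 1105 and 1444 at an unadjusted p under 0.05, DESeq2 not run). No member passed in any of the 3 tissues.

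Within each member, lesions were spread along the whole gene. Across complete 100 kb windows, the mean SSB density varied by 1.61-fold in Csmd1 (16 windows), 1.25-fold in Csmd2 (5 windows) and 1.95-fold in Csmd3 (12 windows). AP site density varied by 1.73-fold, 1.22-fold and 1.85-fold. The last complete window of Csmd2 ended at 128486504, so the higher-coordinate end of that gene was left out. The longest stretch with no lesion in any of the 24 libraries was 13802 bp in Csmd1, 13726 bp in Csmd3 and 8012 bp in Csmd2, while the median gap between neighbouring lesion positions was 63, 141 and 46 bp.

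When each gene was cut into 10 equal parts, departures lay both at the ends and in the interior. In Csmd3, the part with the highest coordinates (48671367 to 48792558) was the densest in both assays, with 0.275 ± 0.0722 LPKM for SSB (n = 12) and 0.209 ± 0.0421 for AP sites. It was above the whole-gene value in 12 of 12 SSB and 11 of 12 AP libraries. In Csmd1, the part with the lowest coordinates (15892538 to 16056822) had the highest AP density, 0.629 ± 0.0894 LPKM, above the whole-gene value in 12 of 12 AP libraries and, at 0.484 ± 0.0846 for SSB, in 10 of 12 SSB libraries. The ninth part of Csmd1 was low in both assays, with 0.343 ± 0.0830 LPKM for SSB and 0.420 ± 0.0714 for AP sites, above the whole gene in only 2 and 1 libraries. For AP sites the eighth part of Csmd1 was lower still, at 0.398 ± 0.0643 LPKM, above the whole gene in 1 library. In Csmd3, the fifth part was the sparsest for AP sites, at 0.107 ± 0.0254 LPKM, above the whole gene in 1 library. The seventh part of Csmd3 was the sparsest for SSB, at 0.114 ± 0.0524 LPKM, above the whole gene in 3 libraries.

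In Csmd2, the SSB density was highest in the part with the highest coordinates, 0.795 ± 0.216 LPKM, but it ranged from 0.581 to 1.38 between libraries. The AP density there was 0.701 ± 0.110 LPKM, close to the whole gene. These are descriptions of parts picked from 10 for their values and were not tested.

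**Figure D4:**
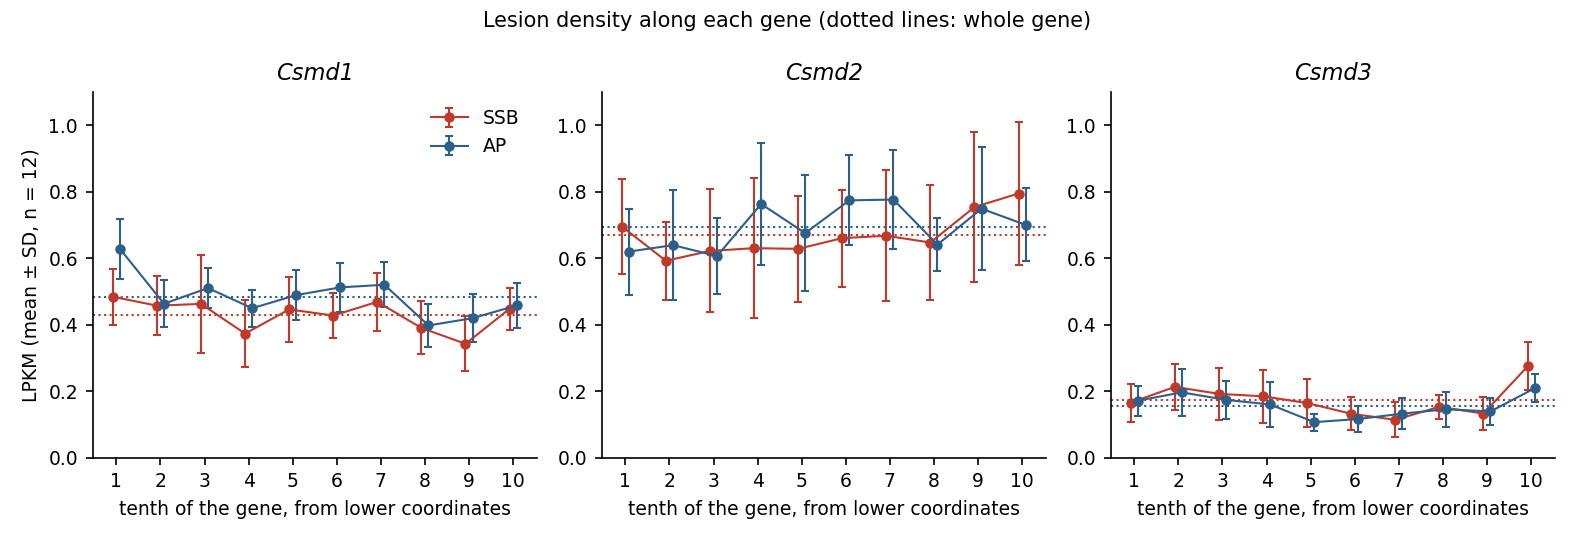
Lesion density (LPKM, mean ± SD over 12 libraries, vertical axis from 0) in 10 equal parts of each gene, numbered from lower to higher coordinates, with SSB in red, AP in blue and dotted lines at the whole-gene means. Csmd3 rises in its last part (0.275 for SSB, 0.209 for AP), and Csmd1 is highest in its first part for AP sites (0.629).

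No difference in the place of the 2 kinds of lesion along a gene was detected. The share of positions below the midpoint was 51.6% ± 3.69 for SSB and 52.5% ± 3.15 for AP sites in Csmd1, 47.2% ± 5.98 and 47.5% ± 2.32 in Csmd2, and 52.9% ± 5.70 and 52.1% ± 2.62 in Csmd3 (SD, n = 12). The SSB minus AP difference in the same DNA samples was −0.87, −0.26 and 0.85 percentage points, none past the exact sign-flip permutation test (adjusted p = 0.902 for each), with SDs of 5.32, 6.40 and 6.62 points over the samples. Shifts of a few points were not detectable at this depth. The window densities of the assays had a Pearson correlation of 0.80 in Csmd1 (16 windows), 0.66 in Csmd3 (12 windows) and 0.23 in Csmd2 (5 windows). This is a description over windows that share their sequence, and 5 windows are too few to set Csmd2 apart.

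By strand, the SSB of Csmd1 lay slightly less often on the plus strand. The share on the plus strand averaged 47.9% ± 2.04 (SD, n = 12), ranged from 45.7% to 51.5%, and was above 50% in 3 of 12 libraries. The difference of −2.11 points from 50% passed narrowly (exact two-sided sign-flip permutation test, p = 0.00781, adjusted p = 0.0469 over 6 tests). It was −2.52 points against the plus share of the whole library (adjusted p = 0.0205), which lay between 50.2% and 50.6% in SSB libraries. The call was lost on leaving out any of 9 of the 12 libraries (adjusted p up to 0.0938), the exceptions being bone marrow replicate 2, PBMC replicate 2 and sperm replicate 1. The libraries came from 2 mice, so these p-values describe the spread between libraries and not between animals.

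No such departure was called for the other members or for AP sites. Csmd3 had 47.2% ± 6.01 of its SSB on the plus strand (adjusted p = 0.422) and Csmd2 49.2% ± 5.68 (adjusted p = 0.747). For AP sites the shares were 50.6% ± 1.95 in Csmd1, 51.0% ± 3.48 in Csmd2 and 50.1% ± 3.78 in Csmd3 (exact sign-flip permutation tests, adjusted p = 0.511, 0.511 and 0.909). Strands are those of the lesion files, since the gene table used gives no strand for the members.

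All 3 genes were denser in lesions than their 2 flanks of 500 kb pooled. Csmd3 was 1.46 times as dense as its flanks for SSB and 1.48 times for AP sites, in 12 of 12 libraries of each assay. Against flanks of 200 kb, Csmd3 was 1.20 times as dense for SSB, in 8 of 12 libraries, and 1.27 times for AP sites, in 12 of 12 (exact sign-flip permutation test, adjusted p = 0.0269 and 0.00146). The lower-coordinate flank of Csmd3 had 0.120 ± 0.0264 LPKM for SSB and the other flank 0.118 ± 0.0238 (n = 12). Csmd1 was 1.18 times as dense as its flanks for SSB (11 of 12 libraries) and 1.25 times for AP sites (12 of 12), with SSB flanks at 0.359 ± 0.0261 and 0.368 ± 0.0394 LPKM. Csmd2 was 1.08 times as dense for SSB (10 of 12) and 1.17 times for AP sites (12 of 12). Its flanks were unequal, 0.533 ± 0.0240 and 0.702 ± 0.0885 LPKM for SSB, so that the higher-coordinate flank exceeded the gene.

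The exact sign-flip permutation test gave adjusted p = 0.000732 over 6 tests for Csmd3 in both assays and for Csmd1 and Csmd2 in AP libraries, 0.00117 for Csmd1 SSB and 0.0264 for Csmd2 SSB. With libraries from 2 mice, these p-values describe the spread between libraries and not between animals. The Csmd1 result turned with the size of the flanks. Against 1 Mb on both sides, Csmd1 was 0.949 times as dense for SSB (adjusted p = 0.0352 in the opposite direction) and 1.001 times for AP sites (adjusted p = 0.960). The Csmd2 SSB call was lost without brain replicate 1 or 2 (adjusted p = 0.0527 and 0.0518).

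**Figure D5:**
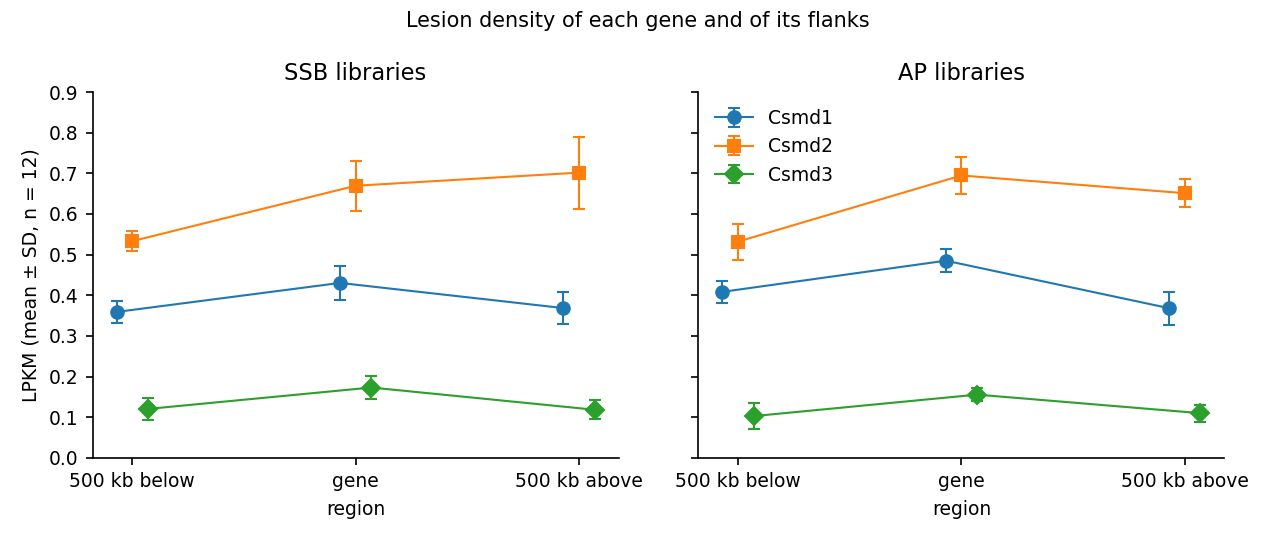
Lesion density (LPKM, mean ± SD over 12 libraries, vertical axis from 0) of each gene and of the 500 kb below and above it in coordinates, for SSB libraries on the left and AP libraries on the right. Csmd3 and Csmd1 stand above both 500 kb flanks in both assays (Csmd1 did not against 1 Mb flanks), whereas the higher-coordinate flank of Csmd2 reaches 0.702 for SSB against 0.669 in the gene.

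Few nucleotides were hit in more than 1 library. In SSB libraries, 16 of 3872 distinct nucleotides of Csmd1 (0.413%, 95% exact binomial interval 0.236 to 0.670%), 19 of 2141 of Csmd2 (0.887%, 0.535 to 1.38%) and 2 of 1138 of Csmd3 (0.176%, 0.0213 to 0.633%) recurred, against 0.519% over the genome. None recurred in more than 2 libraries. In AP libraries, 83 of 6939 nucleotides of Csmd1 (1.20%), 50 of 3517 of Csmd2 (1.42%) and 16 of 1636 of Csmd3 (0.978%) recurred, against 1.45% over the genome. Only 3 nucleotides, all of Csmd1 in AP libraries (positions 16784722 and 16896134 on the plus strand and 17174800 on the minus strand), were seen in 3 libraries. These intervals cover counting error only, and whether recurrence follows the density of a gene was not tested.

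Several smaller genes lie within or across the members. The largest is C030002A05Rik, a protein-coding locus of 138762 bp inside Csmd1, with 0.407 LPKM for SSB and 0.425 for AP sites, close to Csmd1 as a whole. Csmd2os, a non-coding RNA gene inside Csmd2, had 0.546 and 0.653 LPKM, and Gm33656 0.730 and 0.739. CK137956, which crosses the lower-coordinate end of Csmd2, had 0.763 LPKM for SSB and 0.671 for AP sites. Positions in the overlaps count for both genes.

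The genes whose density followed the members most closely over the 12 SSB libraries were Mgat4c (Pearson r = 0.90 on log2 LPKM), Slc25a21 (0.89) and Anks1b (0.85) for Csmd1, Syne2 (0.86), Col5a1 (0.85) and Chn2 (0.83) for Csmd2, and 1700019L22Rik (0.86), Dlgap1 (0.84) and Dcdc5 (0.83) for Csmd3. In AP libraries they were Cntnap5c (0.93), Mapk10 (0.90) and Slc35f1 (0.90) for Csmd1, Pgm5 (0.87), Slc12a7 (0.87) and Camk1d (0.80) for Csmd2, and Cntn4 (0.97), Macrod2 (0.93) and Gm29260 (0.92) for Csmd3. They are the highest of 942 genes in SSB and 1903 in AP libraries, the points share library and depth, and the 2 assays named no gene in common. Among the members, Csmd1 and Csmd3 had r = 0.67 in SSB and 0.83 in AP libraries, while Csmd2 had r between −0.29 and −0.21 with both. Liver replicate 1 was the highest AP library of both Csmd1 (0.544 LPKM) and Csmd3 (0.192 LPKM). Whether Csmd1 and Csmd3 followed each other more closely than other long genes do was not tested.

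Related genes with CUB or sushi domains and genes of the complement cascade gave at most 1 call per test. Of 45 CUB or sushi domain genes, Susd6, a sushi domain gene, passed the SSB F test across tissues (1 of 45, 2.22%, beside 0.125% of all genes, edgeR adjusted p = 0.0194), and Tll2, a metalloproteinase of the tolloid family, was lower in SSB than in AP libraries (1 of 45, 2.22%, beside 0.745% of all genes, log2 difference −0.35, edgeR adjusted p = 0.0320). None of the 45 passed in brain, sperm or bone marrow. None of the 32 complement genes passed in any of these tests, in which at most 0.745% of all genes did. The median gene held only 1 to 3 positions in a library, so the lack of a call does not show the lack of a difference. The shares over all genes include such sparse genes. Among genes with a mean of at least 20 positions, 96 of 3230 were called for SSB in bone marrow, against 73 of 38486 in the main fit. In the SSB to AP comparison, the median log2 difference was −0.10 for the CUB or sushi list and −0.12 for the complement list, beside −0.08 over all genes tested.

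The Sez6 family, which shares the CUB and sushi domains with the members and is also neuronal, is encoded by much shorter genes. Sez6 (48.5 kb) had 0.906 ± 0.218 LPKM for SSB (SD, n = 12) and 1.02 ± 0.107 for AP sites, Sez6l (159 kb) 0.753 ± 0.134 and 0.702 ± 0.0927, and Sez6l2 (20.1 kb) 0.828 ± 0.310 and 0.739 ± 0.210. All 3 mean densities were above those of Csmd1, Csmd2 and Csmd3 in both assays. Those of Sez6l and Sez6l2 lay within their own SD of the Csmd2 mean in both assays (0.669 LPKM for SSB and 0.695 for AP sites), so they were not set apart from Csmd2. None of the Sez6 genes passed the F test across tissues or the SSB to AP test in edgeR, with 2 to 19 positions per library behind the values of Sez6l2.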

How the data were processed

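SSiNGLe and SSiNGLe-AP libraries of 12 DNA samples (6 tissues, 2 samples each) were analysed, and 12 RNA samples were not analysed here. The deposited files list, for each lesion nucleotide on mm10, a raw read count and a strand. The authors' filters and aligner were not re-run, and a position counted as 1 lesion whatever its read count, following the study's methods. The submitters' processing notes name RSEM 1.2.28, which the study used for RNA levels. The aligner is not given in the sources used here. Positions were summed over whole RefSeq gene spans (GRCm38.p6), and the total per library set the depth. Mappable length and base composition were not accounted for.

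Genes with a position in at least 20% of libraries were tested with edgeR 4.0.16 (quasi-likelihood, TMM, R 4.3.3; adjusted p under 0.05 over all genes). Standard errors were taken from the fold and its F statistic. DESeq2 1.42.0, limma 3.58.1, other scalings, filters, depths and left-out libraries were alternatives. Positions of members were compared by exact sign-flip tests. The gene table gives no strand for the members, so plus strand and lower coordinates replaced the planned template strand and 5′ end. Programs were tested on simulated data. Named genes are the members, the 3 genes most correlated with each in each assay (mean of at least 50 positions, no overlap), list genes that passed a test and the Sez6 family. Members and lists were chosen with earlier results of these data known. Brain was contrasted because the members are best known as brain genes. Sperm and bone marrow were contrasted because earlier results of these data put long genes at opposite ends there. Samples of a tissue came from 2 mice. The p-values of the paired edgeR test and of the sign-flip tests therefore describe the spread between samples and not between animals. Same-numbered SSB libraries of different tissues did not deviate together (r from −0.034 to 0.022 over 15 tissue pairs, median 0.0030). For AP the median r over 15 pairs was −0.013, with a range from −0.19 (liver and sperm) to 0.13 (heart and sperm). The labels do not say that a number marks a mouse.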

Additional observations from a re-analysis of the deposited data

Results flagged for a closer look

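The ratio of SSB to AP density of Csmd2 was above 1 in both brain samples (log2 ratios 0.10 and 0.05) and below 1 in both heart samples (−0.07 and −0.16) and both sperm samples (−0.24 and −0.06). The mean log2 ratio therefore differed by 0.19 between brain and heart and by 0.23 between brain and sperm. These pairwise differences between tissues were not tested. The assay by tissue term of edgeR for brain against the other 5 tissues was 0.20 for Csmd2 (unadjusted p = 0.134, adjusted p = 1).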

How the results depend on the processing

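Of the alternatives that did not leave out a library, 327 counted as the same, 5 brought a value past the threshold, 7 took it below, and 30 turned its sign. Of those that left out a library, 530, 2, 17 and 27 did so. The same meant the same direction and side of the threshold, or, for the mean LPKM of a member, a value within its SD of the main one. The mean LPKM rescaled to long genes was close to the main one by construction, so its count among the same carries no information. The adjusted p of the SSB F test for Csmd1 passed with DESeq2 size factors (0.0291), the 80% filter (0.0263), the replicate block (0.0329) and a mean of at least 20 positions (0.0306), and stayed between 0.0544 and 1 in the other settings that kept all libraries or left out a tissue. Csmd1 in sperm (log2 0.25) passed with the last filter, which was chosen after seeing the data.

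Csmd1 in bone marrow lost its call with library size alone (−0.28), long genes (−0.072), summed counts (−0.35), equal depth (−0.36) and DESeq2 (−0.37). Csmd1 in brain turned to −0.0016 with DESeq2 size factors, −0.0047 with library size alone, −0.010 with long genes, −0.00039 with summed counts, −0.0044 at equal depth, −0.032 with a mean of at least 20 positions and −0.0046 with DESeq2. Csmd2 in bone marrow turned to 0.051, 0.25 and 0.054 with library size alone, long genes and a mean of at least 20. For AP sites in brain, Csmd2 turned to −0.013 with DESeq2 size factors, −0.0020 with library size alone, −0.029 with the 80% filter, −0.013 with a mean of at least 20 and −0.014 with DESeq2. Csmd3 turned to −0.034, −0.022, −0.050, −0.033 and −0.037 in the same settings, −0.015 with long genes and −0.0042 without a filter. Csmd2 in bone marrow AP libraries turned to 0.033 with long genes.

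In the SSB to AP comparison, long genes took Csmd1 to −0.11, without a call, and Csmd2 to 0.014. The bone marrow term of Csmd2 turned to 0.069 with a mean of at least 20. Against the library's plus share, the AP strand differences turned to −0.31 points for Csmd1 and −0.85 for Csmd3. With the lowest-coordinate 33.3% of the gene in place of 50%, the place differences turned to 0.36 points for Csmd2 and −2.06 for Csmd3. With 1 Mb flanks, the log2 ratio of Csmd1 was −0.076 for SSB and 0.0015 for AP sites. The causes were not tested.

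Leaving out a library gave adjusted p of 0.0349 to 0.996 for the Csmd1 F test, and log2 values of −0.44 to −0.32 for Csmd1 in bone marrow and −0.12 to 0.10 in brain. For AP sites it gave −0.080 to 0.048 for Csmd2 and −0.060 to 0.046 for Csmd3 in brain, and −0.0014 to 0.11 for Csmd1 and −0.13 to 0.23 for Csmd3 in sperm. Strand differences ranged from −2.44 to −1.91 points (Csmd1 SSB), −1.58 to 0.15 (Csmd2 SSB) and −0.36 to 0.62 (Csmd3 AP). Place differences ranged from −1.58 to 0.25 (Csmd1) and −0.87 to 1.14 (Csmd2), and the log2 ratio of Csmd2 to its flanks for SSB from 0.092 to 0.15. Lone libraries of a tissue were assumed to vary like the others.

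Genes called over all settings other than left-out libraries numbered 3 to 494 for the SSB F test, 0 to 383 for the AP F test, 3 to 86 for SSB in sperm, 5 to 322 in bone marrow, and 43 to 419 for SSB against AP. With a left-out library they numbered 4 to 65, 0 to 2, 0 to 10, 0 to 96 and 209 to 340. Only 1 of 30 same-numbered tissue pairs correlated above 0.1, and the most negative r was −0.19 (AP, liver and sperm). The replicate block changed no other call of a member. Counts of 43 to 775 positions limit what a library can show.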
